A study of Homo sapiens with 8 samples.

Results

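The ZFP36 family consists of 3 genes, ZFP36, ZFP36L1 and ZFP36L2, whose proteins shorten the life of selected mRNAs. The libraries map H3K4me3 (histone H3 trimethylated at lysine 4) by chromatin immunoprecipitation and sequencing in MM1S, an established cell line from a human multiple myeloma. In 3 libraries the cells had received 50 uM KDM5-C70 for 7 days, and in the other 5 libraries the vehicle DMSO, with no time given in the labels. The library titles number the replicates but do not say whether they are separate cultures, so any p-value measures the spread between these libraries, which may be technical. Everything called within 5 kb of the GRCh37 transcription starts of the 3 genes was taken (ZFP36 at position 39897487 of chromosome 19, ZFP36L1 at 69262960 of chromosome 14 and ZFP36L2 at 43453745 of chromosome 2), together with a region farther downstream of ZFP36L2 on chromosome 2, from 43445743 to 43447459. These are 7 of the 50523 regions that result when the 8 lists of called regions are merged, and 3 of the 7, the one nearest each start, were called in all 8 libraries. ZFP36 and ZFP36L2 had been picked because their called width was smaller in every KDM5-C70 list, so their differences between the groups are described here without a test. The downstream region had been picked because DMSO lists hold it and KDM5-C70 lists do not.

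Proteins of this family bind AU-rich stretches of mRNA through a tandem pair of CCCH zinc fingers and bring in the CCR4-NOT deadenylase complex, which removes the poly(A) tail. ZFP36, also called tristetraprolin, is best known for limiting inflammatory messages such as that of TNF, and is itself induced as an immediate early gene by serum and inflammatory signals. ZFP36L1 and ZFP36L2 act on messages of the cell cycle and of differentiation, and in mice they are needed for the quiescence of developing B and T cells. H3K4me3 marks the nucleosomes that flank active transcription starts. KDM5 enzymes remove this methylation, and KDM5-C70 inhibits them.

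The deposited lists give, for each library, called regions and, inside them, inner segments, which in this file layout are the blocks of a region that passed a stricter cutoff. Called bases and inner bases below are the base pairs covered by each in a given window. Lists held 17977 to 37948 regions in KDM5-C70 libraries and 15323 to 32376 in DMSO libraries. Inner segments made up 56.5 to 58.4% of all called bases in KDM5-C70 libraries and 68.2 to 76.3% in DMSO libraries, a difference across the genome that moves with every inner value below, and its part in them was not tested. KDM5-C70 1, DMSO 1 and DMSO 2 had the shortest lists, and by overlap of called bases they formed a set apart from the other 5 libraries, with a Jaccard index of 0.56 to 0.734 within sets and 0.309 to 0.543 between them. Sequencing depth is unknown, and a stretch missing from a list was simply not called, so it may still carry the mark. Cells were measured in bulk, so fewer cells carrying the mark and less of it per cell cannot be told apart.

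The sequence in front of a start shows what kind of promoter the calls lie beside, so the 250 bases before each RefSeq start listed for the family are printed here, 5′ to 3′ on the gene's strand, from the GRCh38.p14 table. That table holds 2 of the 3 genes and gives ZFP36L1 a pair of starts, 2827 bp apart. The GRCh38.p14 starts were not matched to the GRCh37 positions base by base. Capitals mark matches on either strand to 4 short motifs that were chosen after the sequences had been seen. These are the GC box, spelled GGGCGG, and the core of the TATA box, for which TATAA was searched. The other 2 are CCAAT, after which its box is named, and the cAMP response element, spelled TGACGTCA. No match overlaps another.
ZFP36, chr19:39406597-39406846, plus strand: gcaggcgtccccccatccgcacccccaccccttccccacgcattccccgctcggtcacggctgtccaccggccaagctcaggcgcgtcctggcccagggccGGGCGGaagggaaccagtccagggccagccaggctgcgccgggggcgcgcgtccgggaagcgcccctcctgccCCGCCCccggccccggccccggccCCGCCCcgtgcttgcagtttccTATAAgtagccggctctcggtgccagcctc
ZFP36L1, outer start, chr14:68796244-68796493, minus strand: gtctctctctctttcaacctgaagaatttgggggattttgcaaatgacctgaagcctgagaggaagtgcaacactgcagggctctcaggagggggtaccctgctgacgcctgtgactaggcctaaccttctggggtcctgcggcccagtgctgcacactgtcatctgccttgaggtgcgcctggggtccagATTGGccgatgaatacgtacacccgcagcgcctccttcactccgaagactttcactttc
ZFP36L1, inner start, chr14:68793417-68793666, minus strand: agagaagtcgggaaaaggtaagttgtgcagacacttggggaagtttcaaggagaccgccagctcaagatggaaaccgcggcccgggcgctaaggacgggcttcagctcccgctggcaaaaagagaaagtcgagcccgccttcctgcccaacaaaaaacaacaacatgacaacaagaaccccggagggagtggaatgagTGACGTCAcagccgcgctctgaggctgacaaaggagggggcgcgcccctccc

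The ZFP36 stretch held 3 GC boxes and a TATAA at -30 to -26 bp from the start, had 26 CpG dinucleotides and was 76.4% G and C, higher than 91.9% of 35116 promoter stretches of the same length. The outer start of ZFP36L1 had 8 CpG and a CCAAT box in reverse orientation at -59 to -55 bp, and the inner start had 16 CpG and the cAMP response element at -52 to -45 bp. Of all promoter stretches, 42.6% hold GGGCGG, 18.9% TATAA, 32.0% CCAAT and 1.65% TGACGTCA. A match describes these letters and does not show that a factor binds.

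At ZFP36L2 the called region was broken open over the transcription start in every KDM5-C70 library and unbroken in every DMSO library. Distances are given along the gene, with negative values upstream of the start. In KDM5-C70 1 the gap ran from -257 to 932 bp, in KDM5-C70 2 from -462 to 998 bp and in KDM5-C70 3 from -369 to 921 bp. The gaps measured 1190, 1461 and 1291 bp in that order, and all 3 contain the start itself. All 5 DMSO lists call the start, in single intervals that reach from between -1157 and -864 bp to between 2192 and 2441 bp. Such a split, with 1 interval in each DMSO library and at least 2 in each KDM5-C70 library, occurred in 25 of the 13729 regions called in all 8 libraries (0.182%), or 0.192% of the 12996 with 1 interval in each DMSO library, and the opposite split in 2 (0.0146%).

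The flanks of the ZFP36L2 region were called in both groups. Upstream ends lay at -1122, -1177 and -1121 bp in KDM5-C70 libraries and at -1119, -864, -1135, -1157 and -1113 bp in DMSO libraries, so that the ranges overlap. Downstream ends lay at 2182, 2272 and 1800 bp in KDM5-C70 libraries and between 2192 and 2441 bp in DMSO libraries, with KDM5-C70 3 shorter than the rest. The stretch called in all 5 DMSO lists and in no KDM5-C70 list measured 1179 bp, from -257 to 921 bp (chromosome 2, 43452824 to 43454002). Among the 13729 regions called in all 8 libraries, 738 held any run of this kind, and the run at ZFP36L2 was the longest of them. Over all bases called in every DMSO list, 0.487% were called in no KDM5-C70 list, against 38.6% of the 3057 such bases at ZFP36L2. Since ZFP36L2 had been picked on its called width, this length and this share are context only, as are the shares of split regions above. Inside the run, inner segments covered 681, 242, 679, 469 and 620 bp in DMSO 1 to 5. The missing stretch thus included sequence that had passed the stricter cutoff in each DMSO library, but not the start itself. No library of either group had an inner segment over the start. Inner segments of DMSO libraries ended upstream of it between -419 and -280 bp and resumed between 62 and 680 bp, with DMSO 2 the farthest on both sides.

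**Figure D1:**
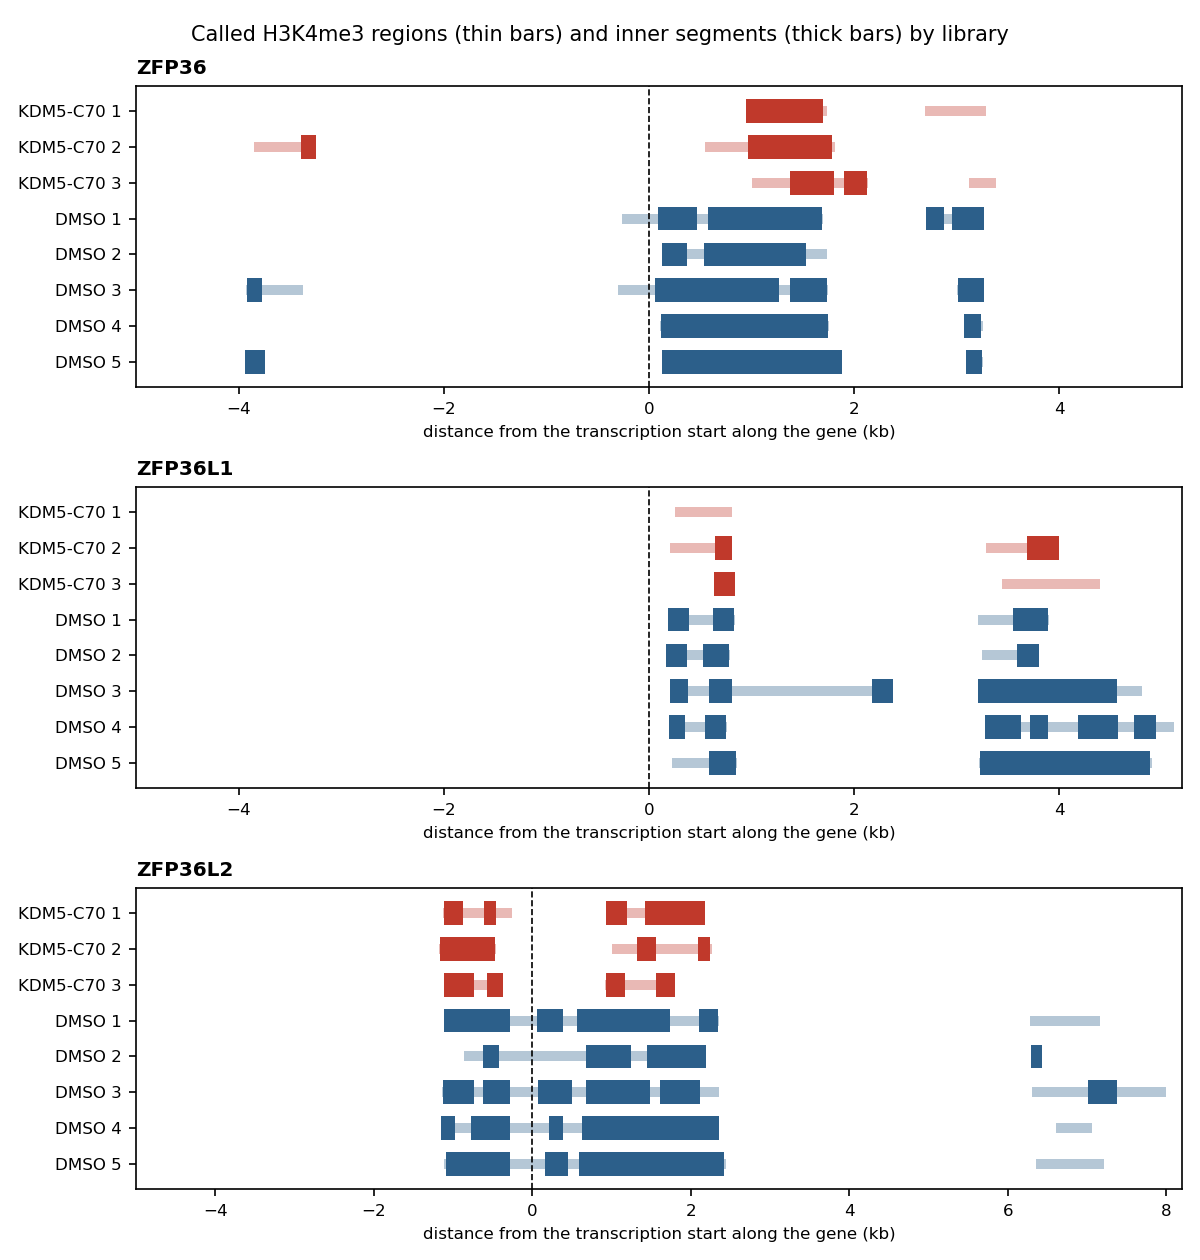
Called regions (thin, pale bars) and inner segments (thick bars) of each library around the starts of ZFP36, ZFP36L1 and ZFP36L2, plotted by distance from the start along the gene in kb, with KDM5-C70 libraries in red above DMSO libraries in blue and the start as a dashed line. At ZFP36L2 the 3 KDM5-C70 libraries show a gap over the start, at ZFP36 their regions begin 550 to 1008 bp downstream of it, and the region downstream of ZFP36L2 appears in the 5 DMSO libraries alone.

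In called bases, ZFP36L2 had 2115, 1989 and 1631 bp in KDM5-C70 1 to 3, against 3470, 3057, 3491, 3516 and 3555 bp in DMSO 1 to 5. No KDM5-C70 value reached the lowest DMSO value, which was that of DMSO 2. Means were 1912 ± 251 bp with KDM5-C70 (SD, n = 3) and 3418 ± 204 bp with DMSO (SD, n = 5), a ratio of 0.559. Inner bases were 1403, 1092 and 1077 bp with KDM5-C70 and 2566, 1514, 2476, 2578 and 2932 bp with DMSO, also without overlap of the groups. DMSO 2 was the DMSO library nearest to the KDM5-C70 values in both measures. Inner segments lie inside called regions, so the measures are not independent. Inner bases as a share of called bases overlapped here, at 54.9 to 66.3% with KDM5-C70 and 49.5 to 82.5% with DMSO. Within 5 kb that share did not overlap at ZFP36 (46.3 to 54.5% against 69.4 to 99.0%) or ZFP36L1 (0 to 36.9% against 51.6 to 82.8%). In the set of KDM5-C70 1, DMSO 1 and DMSO 2 the difference in called bases was -1149 bp, and in the other set it was -1711 bp. For inner bases the set of KDM5-C70 1 gave -637 bp and the other set -1578 bp, against -1223 bp over all 8 libraries.

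The region downstream of ZFP36L2 was called in 0 of 3 KDM5-C70 libraries and in all 5 DMSO libraries, at 882, 146, 1702, 455 and 862 bp. The value of DMSO 2 is the shortest width any list contains. Inner segments were few there, with 146 bp in DMSO 2, 370 bp in DMSO 3 and 0 bp in the other 3 DMSO libraries. The region lies 6286 to 8002 bp past the start of ZFP36L2, whereas the gene is 4205 bp long on GRCh38.p14, so it falls beyond the gene by that length. On the upstream side, the nearest annotated gene on that build is the long noncoding RNA LINC01126, 605 bp away, followed by the protein-coding THADA. Over the whole genome, 4 of the 50523 merged regions (0.00792%) were called in every DMSO and no KDM5-C70 library, and 1 (0.00198%) the other way round.

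At ZFP36 the KDM5-C70 lists lacked the part of the region next to the start, while its distal part was called in both groups. The region began at 949, 550 and 1008 bp downstream of the start in KDM5-C70 1 to 3, against -261, 125, -298, 113 and 127 bp in DMSO 1 to 5. These groups do not overlap, and the means differ by 874 bp. An end that lay farther in in all KDM5-C70 than in all DMSO libraries was found in 605 of the 13729 regions (4.41%), and an end farther out in 649 (4.73%). The downstream end of the ZFP36 region lay at 1739, 1818 and 2140 bp with KDM5-C70 and at 1693 to 1883 bp with DMSO, and these ranges overlap. No KDM5-C70 list and 2 of 5 DMSO lists, DMSO 1 and DMSO 3, call the ZFP36 start itself, which begin at -261 and -298 bp. From 127 to 549 bp, a run of 423 bp (chromosome 19, 39897614 to 39898036), all DMSO lists and no KDM5-C70 list called the sequence. Runs at least as long were held by 34 of the 13729 regions, which is context only, as ZFP36 too had been picked on its called width.

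The called width of the ZFP36 region (chromosome 19, 39897189 to 39899627) was 791, 1269 and 1133 bp in KDM5-C70 1 to 3 and 1955, 1614, 2042, 1640 and 1757 bp in DMSO 1 to 5. Each KDM5-C70 value lies below each DMSO value, with means of 1064 ± 246 bp (SD, n = 3) and 1802 ± 190.1 bp (SD, n = 5). Inner bases of the region averaged 741 ± 89.0 bp with KDM5-C70 and 1536 ± 192 bp with DMSO (SD, n = 3 and 5), also without overlap. The most upstream inner segment began at 950, 962 and 1376 bp with KDM5-C70, and at 87, 125, 63, 118 and 128 bp with DMSO.

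Smaller regions beside ZFP36 did not follow that pattern. A region at -3942 to -3248 bp was called in KDM5-C70 2 with 602 bp and in DMSO 3 and DMSO 5 with 549 and 196 bp. Another at 2698 to 3381 bp, beyond the 2561 bp that the gene spans on GRCh38.p14, was called in 2 of 3 KDM5-C70 and 4 of 5 DMSO libraries. Its called bases were 590, 0 and 264 bp in KDM5-C70 1 to 3 and 567, 0, 264, 186 and 164 bp in DMSO 1 to 5. The nearest gene past the end of ZFP36 on that build is the microRNA gene MIR4530. Counted over the whole window of 5 kb on each side, these regions bring the groups into overlap, with 1381, 1871 and 1397 bp in KDM5-C70 1 to 3 and 2522, 1614, 2855, 1826 and 2117 bp in DMSO 1 to 5. ZFP36 thus separates in the width of the region at its start and not in the called bases of the window. The difference over the window was -637 bp, at -687 bp in the set of KDM5-C70 1 and -632 bp in the other set. Over windows of this size centred on each of the 13729 regions, 0.459% had all KDM5-C70 values below all DMSO values.

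**Figure D2:**
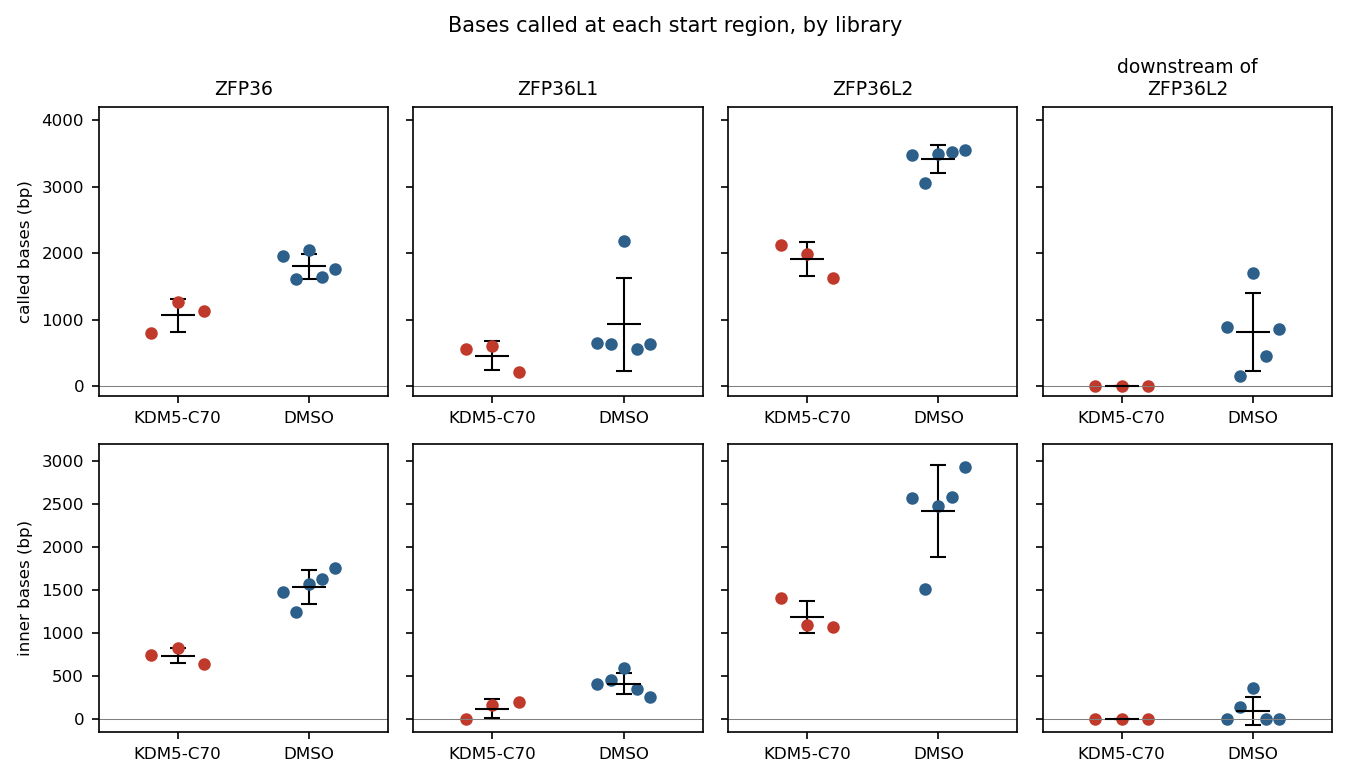
Called bases (upper row) and inner bases (lower row), in bp, of the region at the start of ZFP36, ZFP36L1 and ZFP36L2 and of the region downstream of ZFP36L2, with KDM5-C70 libraries in red and DMSO libraries in blue, 1 point per library, bars at the mean and whiskers of 1 SD. Points of the groups do not overlap for ZFP36 and ZFP36L2 in either row, whereas in called bases of ZFP36L1 the DMSO 3 value of 2178 bp stands above the other DMSO values of 563 to 652 bp.

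ZFP36L1 was not picked on its width, and its called bases overlapped between the groups. Its calls fell into a stretch 166 to 2383 bp past the outer start, called in all 8 libraries, and a stretch 3209 to 5124 bp past it, called in 2 of 3 KDM5-C70 and all 5 DMSO libraries. The second stretch lies beyond the inner start, by the distance between the starts on GRCh38.p14. No list of either group called the outer start itself. Within 5 kb the called bases were 552, 1319 and 1160 bp in KDM5-C70 1 to 3, against 1341, 1184, 3775, 2290 and 2317 bp in DMSO 1 to 5. KDM5-C70 2 lay above DMSO 2, and DMSO 3 above all others. The means differed by -1171 bp, which missed the threshold (2-sided exact permutation p = 0.0714 over 56 splits, adjusted p = 0.0714 over the 2 tests of this gene). Without DMSO 3 the difference was -773 bp. In the set of KDM5-C70 1 it was -711 bp, and in the other set -1555 bp.

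Inner bases at ZFP36L1 were 0, 487 and 203 bp in KDM5-C70 1 to 3 and 756, 670, 1949, 1474 and 1918 bp in DMSO 1 to 5. All 3 KDM5-C70 values lay below all 5 DMSO values, at means of 230 ± 245 bp (SD, n = 3) and 1353 ± 615 bp (SD, n = 5). The difference of -1123 bp had an exact permutation p of 0.0357, the smallest that 56 splits allow, and an adjusted p of 0.0714. In lists cut to equal length both tests of ZFP36L1 gave an adjusted exact permutation p of 0.0357, with differences of -1759 bp in called and -1230 bp in inner bases. Such lists keep the widest regions, so the cut acts on the quantity tested, and in them KDM5-C70 2 and KDM5-C70 3 have no region of ZFP36L1 left. The lower p-values follow from that construction. Stricter lists, made by the q-value, leave no region of ZFP36L1 in any KDM5-C70 library and gave smaller differences of -692 bp in called and -254 bp in inner bases, each with an exact permutation p of 0.357.

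In the distal stretch of ZFP36L1 the called bases were 0, 713 and 957 bp in KDM5-C70 1 to 3, against 689, 559, 1597, 1851 and 1686 bp in DMSO 1 to 5. The groups overlap because DMSO 1 and DMSO 2, of the shorter lists, lie between the KDM5-C70 values. Within the set of KDM5-C70 1, DMSO 1 and DMSO 2 and within the other 5 libraries, KDM5-C70 lay below DMSO. For the stretch nearest the outer start (chromosome 14, 69260577 to 69262794), limma over the 13729 regions gave a log2 change of -0.96 (SE 0.53) and an adjusted p of 0.994. Adding the set as a term and centring each library gave -1.08 (SE 0.52) and a limma adjusted p of 0.391.

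At all 3 genes the stretch next to the start, at ZFP36L1 the outer one, held no inner segment in any KDM5-C70 list. This was noticed after the values had been seen, and the window of 500 bp was chosen then. In the 500 bp downstream of the start, inner segments covered 0 bp at each gene in all 3 KDM5-C70 libraries. At ZFP36 they covered 379, 246, 438, 383 and 373 bp in DMSO 1 to 5. At ZFP36L1 they covered 203, 209, 171, 153 and 0 bp, and at ZFP36L2 319, 0, 428, 169 and 282 bp, in the same libraries. ZFP36 therefore separates in all DMSO libraries, and each of the other genes has a single DMSO library without an inner segment there. Called bases of the same window were 0 bp in every KDM5-C70 library at ZFP36 and ZFP36L2. Inner segments lie inside called regions, so inner bases there could only be 0 bp. Both genes had been picked on called width, so only ZFP36L1 was free of that choice, and the shares of tiles below are context only. At ZFP36L1 they were 243, 294 and 0 bp in KDM5-C70 1 to 3 and 276 to 335 bp in DMSO libraries, so 2 of the 3 KDM5-C70 libraries kept a call near its outer start. The inner start of ZFP36L1 was not given such a window. Past it, inner segments began at 3553, 3595, 3210, 3274 and 3228 bp from the outer start in DMSO 1 to 5. DMSO 1 and DMSO 2, of the shorter lists, thus began farthest from it among DMSO libraries. Of the KDM5-C70 libraries only KDM5-C70 2 had an inner segment there, from 3686 bp. Since starts of other genes are not placed on GRCh37 here, the nearest background is a set of 500 bp tiles laid along the 13729 regions. Of 35470 tiles with an inner segment in at least 4 DMSO libraries, 387 (1.09%) had none in any KDM5-C70 library, and of 29897 with one in all 5 DMSO libraries, 131 (0.438%) had none. In the other direction, 11 of 28953 tiles with an inner segment in all KDM5-C70 libraries (0.038%) had none in any DMSO library.

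By mean breadth, ZFP36L2 came first in both groups. Within 5 kb it averaged 1912 ± 251 bp, ZFP36 1549.7 ± 278 bp and ZFP36L1 1010 ± 405 bp with KDM5-C70 (SD, n = 3). With DMSO the averages were 3418 ± 204 bp, 2187 ± 505 bp and 2181 ± 1033 bp in that order (SD, n = 5). ZFP36 and ZFP36L1 had overlapping values with DMSO and separate ones with KDM5-C70, while ZFP36L2 and ZFP36 overlapped with KDM5-C70 and were separate with DMSO. ZFP36L2 was broader than ZFP36 in each of the 8 libraries. It was broader than ZFP36L1 in all 3 KDM5-C70 libraries and in 4 of 5 DMSO libraries, and in DMSO 3 ZFP36L1 had 3775 bp against 3491 bp, so that their DMSO values overlap.

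Ranking within a library sets each start region against the other regions of the same list, which differ in number and width between libraries. At ZFP36, 35.5, 32.7 and 24.3% of the regions called in all 8 libraries were narrower in KDM5-C70 1 to 3, against 94.4, 92.8, 81.4, 69.0 and 73.6% in DMSO 1 to 5. ZFP36L2 stood at 97.6, 74.5 and 53.0% in KDM5-C70 1 to 3 and at 99.2 to 99.9% in DMSO libraries, which places it among the broadest regions of every DMSO list. For ZFP36L1 the shares were 16.7, 4.15 and 0.255% with KDM5-C70 and 17.7, 31.1, 86.0, 3.90 and 4.92% with DMSO, and these overlap.

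**Figure D3:**
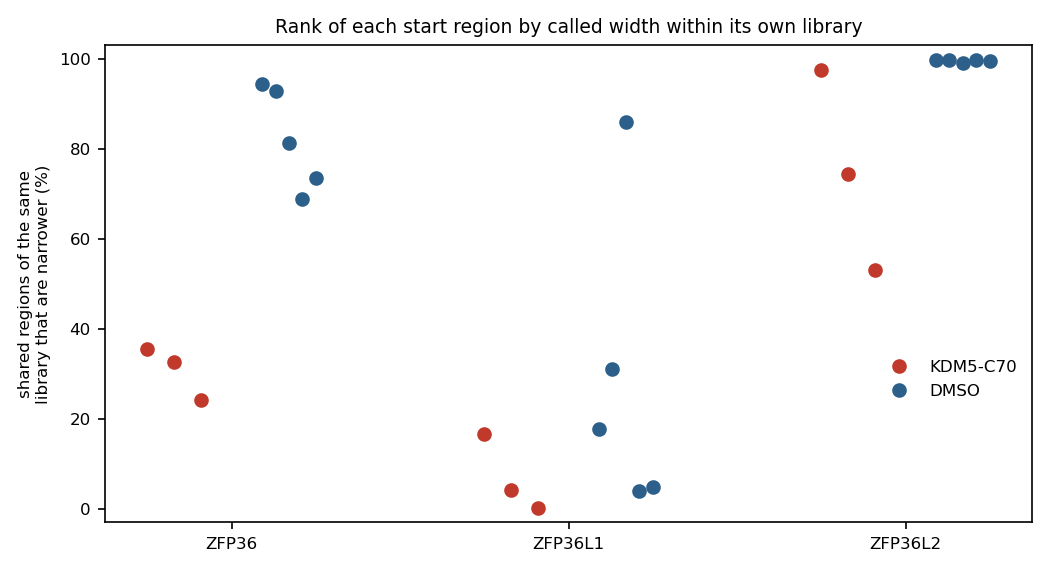
For the start regions of ZFP36, ZFP36L1 and ZFP36L2, the share (in %) of the regions called in all 8 libraries that are narrower in the same library, with KDM5-C70 libraries in red left of DMSO libraries in blue, 1 point per library. ZFP36 lies at 24.3 to 35.5% with KDM5-C70 and at 69.0 to 94.4% with DMSO, and ZFP36L2 at 53.0 to 97.6% with KDM5-C70 and above 99% in all 5 DMSO libraries.

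Set against the rest of the genome, all 3 start regions lie in the narrowed tail. The log2 ratio of mean widths, KDM5-C70 over DMSO, was -0.76 at ZFP36, -1.04 at ZFP36L1 and -0.84 at ZFP36L2, while the median over 13729 regions was 0.15 and 90% of them lay between -0.31 and 0.53. Counted from the most narrowed, ZFP36L1 was number 42, ZFP36L2 number 80 and ZFP36 number 100. The place of ZFP36L1 rested on single libraries, since its ratio was -0.45 without DMSO 3 and -0.68 without KDM5-C70 3. Leaving out single libraries gave -0.92 to -0.74 at ZFP36L2 and -0.91 to -0.59 at ZFP36. Widths of all KDM5-C70 libraries lay below those of all DMSO libraries in 83 regions (0.605%) and above them in 131 (0.954%). For inner bases, with libraries without an inner segment counted as 0 bp, the numbers were 309 (2.25%) and 3 (0.0219%), and 39 regions (0.284%) were lower in both measures, ZFP36 and ZFP36L2 among them. Since the genes were picked on this property, these shares are given as context only. The distance between the lowest DMSO and the highest KDM5-C70 width was 942 bp at ZFP36L2 and 345 bp at ZFP36, which satisfy the rule, and -43 bp at ZFP36L1, which narrowly fails it. Some rise in both width counts follows almost by construction when a library is left out, since fewer libraries separate more easily. The count of 83 was 343 without DMSO 2, 174 without KDM5-C70 1, 238 without KDM5-C70 2 and 181 without KDM5-C70 3. The count of 131 wider regions moved more, to 5481 without KDM5-C70 1 and to 343 without DMSO 3. It was 164 without KDM5-C70 2 and 163 without KDM5-C70 3, though each of these also leaves out a single library. The size of the rise is thus not given by the construction. KDM5-C70 1 is the only KDM5-C70 library in the set with the shortest lists, and the part of this was not tested.

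**Figure D4:**
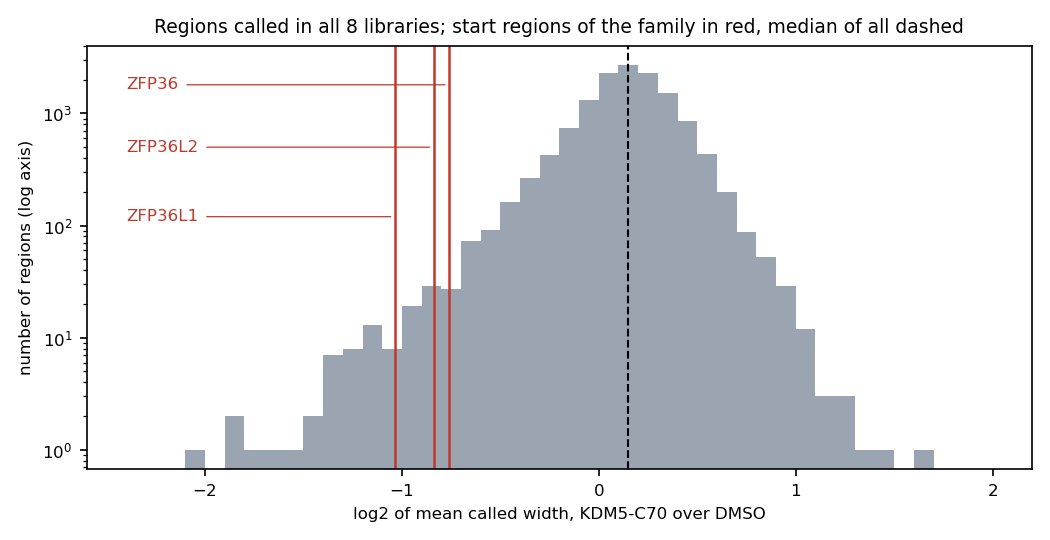
Histogram of the log2 ratio of mean called width, KDM5-C70 over DMSO, over the 13729 regions called in all 8 libraries (vertical axis: number of regions, log axis), with red lines at the start regions of the 3 genes and a dashed line at the median. ZFP36L1 at -1.04, ZFP36L2 at -0.84 and ZFP36 at -0.76 lie left of the median of 0.15, in the narrowed tail.

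Of the 13729 regions, limma passed 0 as wider (0.0%) and 0 as narrower (0.0%) with KDM5-C70 after Benjamini-Hochberg adjustment at 0.05. An unadjusted limma p below 0.05 was found for 242, of which 131 were wider. This is a smaller share than the 0.05 that such a threshold marks when no region differs. In a fit that allows for the library sets and centres every library, 5 passed as wider (0.0364%) and 22 as narrower (0.16%). The fitted log2 change without these terms was -0.78 (SE 0.20) at ZFP36 and -0.84 (SE 0.14) at ZFP36L2, and with them -0.91 (SE 0.12) and -0.96 (SE 0.12) in that order. Both genes had been picked on this width, so these estimates and their SEs are description and do not test either gene.

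The authors' own value for a region, the -log10 of its q-value, was 2.13, 3.51 and 1.83 at the ZFP36 start region in KDM5-C70 1 to 3, against 11.5, 9.07, 7.61, 6.47 and 6.23 in DMSO 1 to 5. A value of at least 5 was reached by 3028 to 7036 regions in KDM5-C70 lists and by 6394 to 19917 in DMSO lists, so the value was also ranked within each list. By rank, 38.2, 61.6 and 44.4% of the regions of the KDM5-C70 lists had a lower value, and 48.7 to 86.4% of those of the DMSO lists. These ranges overlap, unlike the ranks by width. At ZFP36L2 the deposited values themselves overlapped. The higher value of the pair of regions there was 3.55, 3.40 and 2.40 in KDM5-C70 1 to 3, and the single region had 7.23, 2.63, 7.23, 6.37 and 7.55 in DMSO 1 to 5, so that DMSO 2 lies below KDM5-C70 1 and KDM5-C70 2. By rank, those regions stood at 66.8, 59.96 and 59.7% in KDM5-C70 lists and at 25.4 to 59.8% in DMSO lists, with KDM5-C70 1 and KDM5-C70 2 above every DMSO list. The lower value of each pair was 2.90, 1.15 and 1.37 in KDM5-C70 1 to 3, at ranks of 55.4, 13.1 and 28.4%. The order of the groups at ZFP36L2 thus depends on which region of the pair is taken. ZFP36L1 had 2.08, 2.41 and 0.920 in KDM5-C70 1 to 3 and 7.27, 3.50, 8.14, 2.65 and 8.63 in DMSO 1 to 5, which do not overlap, while its ranks of 11.6 to 42.1% with KDM5-C70 and 24.0 to 64.2% with DMSO do.

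The regions whose log2 width over the 8 libraries was most like that of ZFP36L2, by Pearson's r, lay on chromosome 6 (45389151 to 45392414, r = 0.987), chromosome 4 (74964522 to 74965281, r = 0.976) and chromosome 16 (79631402 to 79635998, r = 0.967). For ZFP36 they lay on chromosome 14 (67827087 to 67827879, r = 0.963, and 100704154 to 100707164, r = 0.962) and chromosome 2 (151341709 to 151344229, r = 0.951). ZFP36L1 was most like regions on chromosome 3 (124931116 to 124931862, r = 0.942), chromosome 12 (14926934 to 14928188, r = 0.936) and chromosome 11 (46140190 to 46144264, r = 0.928). Within the family r was 0.813 between ZFP36 and ZFP36L2, 0.649 between ZFP36L1 and ZFP36L2 and 0.551 between ZFP36 and ZFP36L1. All of these values describe 8 points that share the same lists, and they include the differences between the groups and between the sets of libraries. No gene was assigned to the other regions, because the gene table used here is of another build.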

How the data were processed

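The 8 libraries were grouped by their titles into KDM5-C70 (n = 3) and DMSO (n = 5). Per the submitters' processing notes, the tools were MACS2 2.1.0, HOMER 4.8, Bowtie 1.1.2 and Trim Galore 0.40, and the build GRCh37. Settings and controls of these steps were not found in the sources. Regions were deposited per library, so replicates were not pooled. For each region the authors deposited positions and inner blocks in base pairs, the -log10 of its q-value and p-value, a ratio called fold enrichment, and a score for display. In 3 lists the region names carry another number than the library title, and samples were taken from the titles. No depth or read count was used.

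Regions on chromosomes 1 to 22 and X were merged at an overlap of at least 1 bp. Regions on other sequences were left out, among them contigs in a DMSO list whose names begin with Dros. Blocks of 1 bp, which mark ends, were left out of inner segments. Positions are counted from 1. Library sets come from average linkage on the Jaccard index of called bases. Single values were compared with the exact permutation test with the smaller tail doubled. Widths were fitted with limma 3.58.1 in R 4.3.3 (log2 called bases, variance trend, Benjamini-Hochberg at 0.05). Intervals were handled in Python 3.11.15 (numpy 2.4.6 and pandas 2.3.3), clustering with scipy 1.17.1, and plots with matplotlib 3.10.9. Interval steps were tested on simulated intervals. On simulated widths of the 13729 regions, with no difference between library sets, limma recovered 22% of 100 regions given a log2 change of 1 and 76% of 100 given 2, with 5 false calls.

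Named were the members and, for each, the 3 regions with the highest Pearson r. The members, lists and tests were chosen with earlier results of these data known. Lists of other mRNA decay genes and of cell type markers, meant for use with a GRCh37 annotation, were not used, so the identity of the cells rests on the labels. ZFP36L2 was taken to lie on the minus strand from general knowledge. Results were recomputed from stricter lists (regions whose -log10 q-value is 5 or more), lists of equal length, windows of 2 and 10 kb, inner bases, joining within 1000 bp, centring, library sets, a replicate block and leaving out each library. The start region alone and each set alone were added after the data had been seen.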

Additional observations from a re-analysis of the deposited data

Results flagged for a closer look

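A search for single DMSO libraries that stand apart from the other 4 was run on 23 groups of values and marked 5, where about 5% of groups are marked by chance. DMSO 3 called 2178 bp at the start region of ZFP36L1, and the other DMSO libraries 563 to 652 bp. The downstream end of that region lay at 2383 bp in DMSO 3 and at 759 to 855 bp in the others. DMSO 2 called 3057 bp at ZFP36L2, both within 5 kb and in the start region, and the others 3470 to 3555 bp. The upstream end of that region lay at -864 bp in DMSO 2 and between -1157 and -1113 bp in the others. These 5 marks concern 2 libraries and overlap in what they measure.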

How the results depend on the processing

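All 109 recomputed differences of the 7 values in bases stayed below 0, KDM5-C70 minus DMSO, under every alternative run. ZFP36, ZFP36L2 and the downstream region had been picked for lower called bases with KDM5-C70, so their sign was largely set by that choice. Only ZFP36L1 had not been picked in this way. Leaving out each library in turn gave -798 to -470 bp for called and -1169 to -954 bp for inner bases at ZFP36, -1420 to -773 and -1294 to -975 bp at ZFP36L1, -1608 to -1366 and -1447 to -1093 bp at ZFP36L2, and -975 to -586 bp downstream of ZFP36L2. ZFP36L1 cannot pass 0.05 with a library left out. Stricter lists gave -1687 (called) and -1569 bp (inner) at ZFP36, where KDM5-C70 lists keep no region at the start. They gave -2806 and -2110 bp at ZFP36L2 and -692 and -254 bp at ZFP36L1, where KDM5-C70 lists keep no region at all. At each gene the cutoff itself thus removed the start region from the KDM5-C70 lists. Windows of 2 kb gave -399.5 and -252 bp at ZFP36L1. Lists of equal length gave -2288 and -1816 bp at ZFP36L2, and -1759 and -1230 bp at ZFP36L1, past the threshold, where the cut by width leaves KDM5-C70 2 and KDM5-C70 3 no region. Windows of 10 kb gave -1380 bp (inner) at ZFP36 and -2316 bp (called) at ZFP36L2, where they reach the downstream region. In the set of KDM5-C70 1, ZFP36L2 gave -1149 (called) and -637 bp (inner). The number of regions past the limma threshold was 0 under each left-out library, 1 of 10 regions with stricter lists, 27 with library sets and centring, and 10 with the replicate block, and the cause was not tested. Regions narrower without overlap numbered 83 of 13729. They numbered 1 of only 10 with stricter lists, 38 of 10147 with lists of equal length, and 267 of the 12816 with inner bases in all 8 libraries. Without single libraries they numbered 88 to 343, of 13735 to 14989 regions. Of the same totals, wider ones numbered 131, then 0 with stricter lists, 106 with lists of equal length and 3 by inner bases. Without single libraries they numbered 135 to 5481. Leaving a library out makes separation easier, so some rise in both counts follows almost by construction, but its size does not. The count of 5481 came without KDM5-C70 1, the only KDM5-C70 library of its set, and the cause was not tested.

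Deviations of same-numbered libraries correlated at 0.367, -0.306 and 0.318 for numbers 1 to 3. Differently numbered libraries of the same set gave similar values, such as 0.415 for KDM5-C70 1 with DMSO 2. Over all pairs the sign followed the library sets, so these values cannot show whether the replicate numbers pair the libraries. With the replicate block, which leaves out DMSO 4 and DMSO 5, called bases differed by -781 bp at ZFP36, -1090 bp at ZFP36L1, -1428 bp at ZFP36L2 and -910 bp downstream of it, and inner bases by -939, -895 and -995 bp at the 3 genes. For ZFP36L1 its smallest possible exact p is 0.25, so it could make no call.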
